A study of Solanum tuberosum with 100 samples.

Results

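Cross 2170 is a full-sib family of tetraploid potato, obtained by crossing the breeding line Crop52 with the variety 'Red Rascal'. It contributed 8 of the 100 RNA samples of a half-sib panel in which every sequenced genotype had Crop52 as a parent. The 8 samples were those whose names start with the cross number 2170. According to their titles, 7 of them (2170_1 to 2170_5, 2170_7 and 2170_8) belonged to the low-bruising group and 1 (2170_6) was not used in the study's differential expression analysis. Samples with such a title are called intermediate here, because the study left out those whose score fell in neither bruising group. None of the 8 was in the high-bruising group. They were compared with the 59 low-bruising and intermediate samples (34 low-bruising and 25 intermediate) of the other 10 crosses, and the 33 high-bruising samples, all from other crosses, did not enter that comparison.

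All samples, those of cross 2170 included, were tuber tissue taken at the site of impact 2 h after a falling lead weight had struck the tuber, so that no unbruised tissue was measured. Each genotype was sequenced once, from the pooled tissue of several tubers of 1 biological replicate, and the 8 samples were therefore different sibs rather than repeats of 1 genotype. All of them carried chromosomes of the same parents, so a difference between cross 2170 and the others described these 8 progeny and could not be told apart from anything else the family shared. A lower level of a transcript in such bulk tissue could not be told apart from a smaller share of the cells that make it.

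Blackspot bruising is the browning that follows when damaged cells let polyphenol oxidases, which are stored in plastids, reach phenolic compounds such as chlorogenic acid, and oxidise them to dark melanin pigments. Chlorogenic acid comes from the phenylpropanoid pathway, which also leads to the anthocyanins, the red and purple pigments of potato skin and flesh. Potato tubers store much of their protein as patatin, an acyl hydrolase that releases fatty acids from lipids, and as protease inhibitors of the Kunitz and potato inhibitor families. The genes followed through the data came from 2 lists, namely 40 candidate genes for bruising from earlier work that were listed in the study, of which 35 had a row in the count table, and 57 genes that the study itself had called between high- and low-bruising genotypes. The second list had been chosen on samples that included 7 of the 8 described here, so a difference of its genes in this family is not independent evidence for them.

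The tuber identity of the 8 libraries was clear from the storage protein genes. In cross 2170, the Kunitz-type proteinase inhibitor KTPI ranked 4, the patatin PAT1-K1 ranked 12 and the patatin PAT2-K4 ranked 35 among all 25163 genes by mean CPM. CPM are read counts scaled to a common library size and are not corrected for gene length. KTPI lay between 2799 and 11747 CPM in the 8 samples. Of the 7 tuber markers, only PAT3 was low, at 2.93 to 13.0 CPM. The 8 libraries held 11902575 to 30906082 counts and the other 59 held 7774698 to 41650152, so that 1 CPM stood for 7.77 reads in the shallowest library of the comparison.

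One library stood apart from the other 7. The mean correlation of log2 CPM with its sibs (over 17205 genes with a mean of at least 1 CPM) was 0.920 for 2170_1 and 0.936 to 0.942 for each of the other 7 samples. Each of those 7 was closer to its own family than to any other cross, but 2170_1 was closest to cross 2172 (0.925), followed by cross 2168 (0.925). Over the whole panel, 98 of the 100 samples were closest to the cross named in their title, so 2170_1 was 1 of only 2 samples for which this was not so. Whether its label is right was not tested, and the main results below are also given without it. Among the 92 listed genes described below, leaving it out changed the call of 1 and the sign of the estimate of 10, and none of the 23 with an unadjusted p below 0.05 moved by more than 1.5 times on the log2 scale.

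The first question was how far the family differed from the remaining low-bruising and intermediate genotypes. With edgeR's quasi-likelihood test and a Benjamini-Hochberg adjusted p below 0.05, 675 of 25163 genes were called (2.68%), of which 392 (1.56%) were higher and 283 (1.12%) were lower in cross 2170. The median log2 fold change was 0.75 for the genes called higher and -0.81 for those called lower, beside -0.04 for all genes. A change of more than 2-fold was found for 142 of the higher and 114 of the lower genes. Without 2170_1, 767 genes were called (412 higher, 355 lower), and 549 of them were among the 675. The number fell when another of the 8 samples was left out, by more than 1.5 times for 2170_4 (417 genes), 2170_5 (429), 2170_6 (418), 2170_7 (419) and 2170_8 (410). With low-bruising samples only, 7 against 34, 296 genes were called. The balance of directions depended on the tool: DESeq2 called 433 higher and 789 lower, and limma-voom 686 higher and 244 lower. A contrast in which each cross counted by its mean called 1925 genes, 1346 higher and 579 lower. Both edgeR and DESeq2 called 623 of the 675 genes.

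Another family of the same size gave a similar number of genes. Cross 2155, which also had 8 low-bruising and intermediate samples, gave 796 when it was compared with all the rest in the same way. The 2 largest families, crosses 2158 and 2159 with 11 samples each, gave 904 and 3543 genes, and cross 2183 gave 1631 genes with only 5 samples. The other crosses, with 2 to 5 samples, gave between 32 (cross 2168) and 772 (cross 2121) genes. These counts were not tested against each other.

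**Figure D1:**
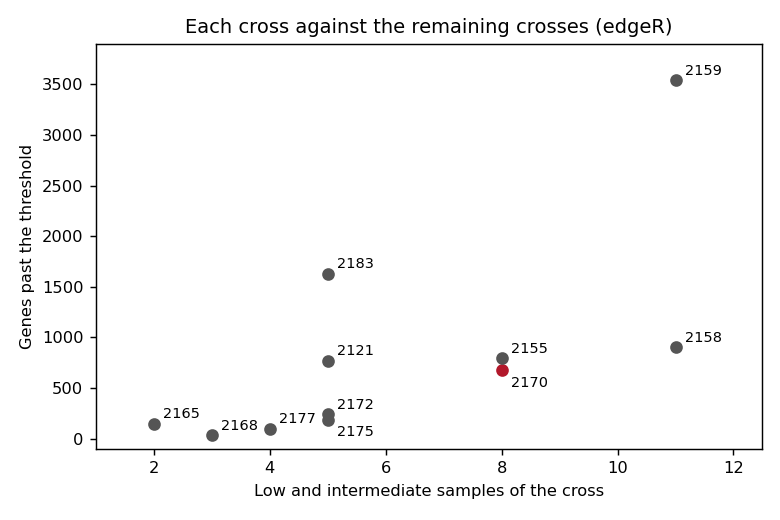
Number of genes with an adjusted p below 0.05 (edgeR, vertical axis) for each cross compared with the low-bruising and intermediate samples of the remaining crosses, against the number of such samples in the cross (horizontal axis). Cross 2170 (red, 675 genes, 8 samples) lay just under cross 2155 (796 genes, 8 samples), while cross 2159 reached 3543 genes.

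The sibs overlapped the other samples in these genes. Their SD of log2 CPM was, for the median gene of at least 1 CPM, 0.907 times that within the other crosses. No gene had all 8 samples above every one of the other 59 (0%), and none had all 8 below (0%). Without 2170_1, a single gene had all 7 remaining samples above the other 59. Among the 392 genes called higher, 61 had no sample above the range of the other crosses, 264 had 1 to 3 such samples, and 67 had 4 to 7. Over all 25163 genes, 22768 had no sample above that range, and 42, 21, 8 and 2 had 4, 5, 6 and 7. The matching counts over all genes were not made for lower levels, so those given next are a description only. Among the 283 called lower, 141 had no sample below the range of the others and 3 had as many as 5. A sib could not lie below that range where another sample had no read, and 15 of the 283 had no read in any sib. Likewise, no gene was detected (at 0.5 CPM or more) in all 8 samples and in at most 5 of the others, and no gene was missing from all 8 but detected in at least 54 of the others.

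**Figure D2:**
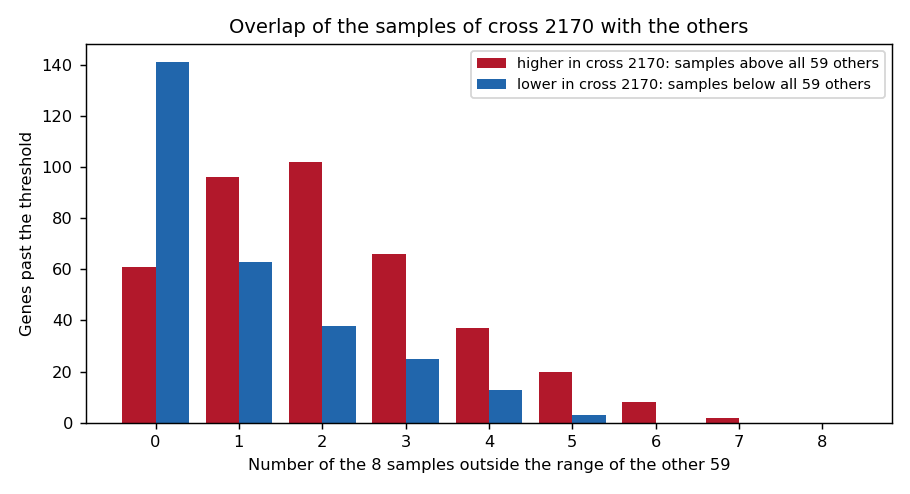
Genes called higher (red) or lower (blue) in cross 2170, by the number of the 8 samples that lay above or below all 59 other samples (horizontal axis). The largest red bar was at 2 samples (102 genes), the largest blue bar was at 0 samples (141 genes), and both were empty at 8.

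The clearest difference among the listed genes was that of 1 phenylpropanoid gene, the only one called of the 7 measured. The anthocyanin synthase gene (PGSC0003DMG400022746, chromosome 8 of the PGSC-DM v4.03 assembly), which encodes an enzyme of the pigment pathway and belongs to the study's bruising list, measured 11.5 CPM in 2170_1, 10.2 in 2170_2, 1.22 in 2170_3, 1.22 in 2170_4, 19.8 in 2170_5, 28.4 in 2170_6, 12.3 in 2170_7 and 1.1 in 2170_8. In the other 59 samples, its level ran from 0.262 to 4.30 CPM with a median of 1.05. Hence 5 of the 8 sibs were above every other low-bruising or intermediate sample, with the intermediate sample 2170_6 the highest, and the remaining 3 were at the level of the other crosses. The mean was 10.7 ± 9.78 CPM (SD, n = 8) against 1.34 ± 0.876 CPM (n = 59). The log2 fold change was 2.99 (SE 0.29, adjusted p = 2.1e-11 by edgeR), which was the second smallest p of the whole table, and 2.98 without 2170_1 (adjusted p = 2.5e-10). The call was kept in all 29 alternatives tried, with a log2 fold change of 2.41 to 3.16.

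Among the 11 crosses, the median level of the anthocyanin synthase gene was 10.9 CPM in cross 2170, 2.79 in cross 2177, 1.92 in cross 2121, 1.42 in cross 2158 and 0.819 to 1.28 in the remaining 7. The ranges of the other crosses overlapped each other, except that of cross 2121 (1.41 to 2.45 CPM) with those of crosses 2155 and 2168, and the 3 low sibs of cross 2170 (1.1 to 1.22 CPM) were within the ranges of the other crosses except that of cross 2121, in which no sib of cross 2170 lay. The spread within the family was the widest, relative to the other families, of all 92 listed genes: the SD of log2 CPM was 1.91 over the 8 sibs and 0.75 within the other crosses, and a gap of 2.97 on the log2 scale separated the 5 high from the 3 low sibs. For the median listed gene, the SD in cross 2170 was 0.87 times that within the other crosses.

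**Figure D3:**
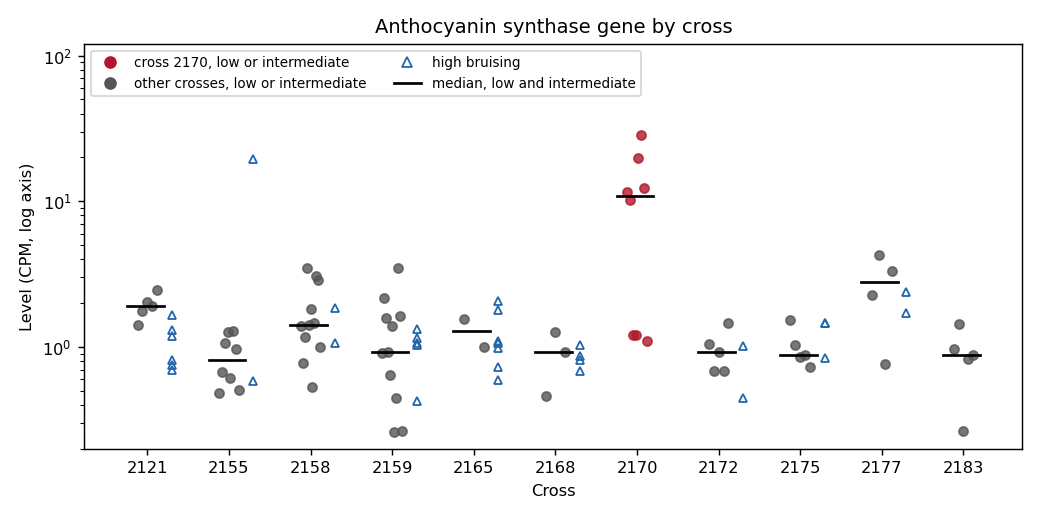
Level of the anthocyanin synthase gene (CPM, log axis) in every sample, by cross, with circles for low-bruising and intermediate samples (red for cross 2170), triangles for high-bruising samples and a line at the median of the circles. Of the 8 red circles, 5 lie between 10.2 and 28.4 CPM and 3 between 1.1 and 1.22 CPM, and outside the family 1 high-bruising sample of cross 2155 (19.5 CPM) is in the upper range.

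The high-bruising samples of the other crosses gave no such difference for this gene. Its median was 1.06 CPM in the 33 high-bruising samples, and the log2 fold change of high over low bruising, computed without cross 2170, was 0.45 (SE 0.27, adjusted p = 0.48 by edgeR). The sign of this estimate rests on 1 high-bruising sample, 2155_6 (19.5 CPM), and without it the log2 fold change was -0.11 (SE 0.19, adjusted p = 0.87 by edgeR). With all 33 high-bruising samples, 43 of 25163 genes passed the threshold (0.171%), and 24 did with the replicate number of the titles, which marks no pairing, as a block. It shares the low-bruising samples of the other crosses with the comparison of cross 2170, so the values of both are only set side by side here.

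The same 5 sibs stood out for further genes. Of the 392 genes higher in cross 2170, 20 had exactly 5 samples above all 59 others, and for 9 of these 20, the anthocyanin synthase gene included, the 5 samples were 2170_1, 2170_2, 2170_5, 2170_6 and 2170_7. No other combination of 5 samples was seen for more than 2 genes. The log2 fold changes of these 9 genes ran from 2.99 to 4.43, and for all 9 the levels in the remaining 3 sibs were within the range of the other crosses. The other 8 have no name in the sources used here, and 3 of the 9 had a mean under 1 CPM. These genes were picked by their values, so the counts are a description only. Among them, PGSC0003DMG400003563 was past the threshold whichever of the 8 samples was left out. It measured 16.0, 13.4, 2.00, 1.17, 28.4, 47.6, 25.4 and 0.693 CPM in 2170_1 to 2170_8, and 0.385 to 7.06 CPM (median 1.72) in the others. Its log2 fold change was 3.02 (SE 0.32), and 3.03 without 2170_1. The samples that were high and low were thus those of the anthocyanin synthase gene, although 2 of the 3 low sibs were under the median of the other crosses.

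The remaining genes of phenolic metabolism showed no call. Of 7 measured phenylpropanoid genes, 1 was called higher (the anthocyanin synthase gene) and none lower, with a median log2 fold change of 0.03. The gene of 4-coumarate CoA ligase (4CL, PGSC0003DMG400003155, chromosome 3), which activates hydroxycinnamic acids for all later branches, lay between 30.0 and 74.0 CPM (median 50.5) in the family and between 13.3 and 189 CPM (median 77.7) in the others. All 8 sibs were below the median of the other crosses, but inside their range, and the log2 fold change of -0.65 (SE 0.25) had an adjusted p of 0.14 by edgeR (-0.56 without 2170_1, adjusted p = 0.24). For 4CL2, a second gene of this enzyme, the medians were 70.3 CPM in the family and 90.0 CPM in the others (adjusted p = 0.59 by edgeR). HQT, the gene of hydroxycinnamoyl quinate CoA transferase, which makes chlorogenic acid, had a median of 250.2 CPM in the family and 229 CPM in the others, with a log2 fold change of 0.03 (SE 0.17). PAL, phenylalanine ammonia-lyase, the entry enzyme of the pathway, was near the limit of detection for the one gene listed, at 0 to 0.792 CPM in the family. The peroxidase gene PEROX had all 8 sibs above the median of the others (0.359 CPM), at 0.373 to 2.34 CPM. Its log2 fold change was 1.02 (SE 0.55, adjusted p = 0.31 by edgeR). The caffeic acid O-methyltransferase II gene had -1.09 (SE 1.16, adjusted p = 0.68 by edgeR). It was at 0 to 4.08 CPM, with 2 sibs above a gap of 3.53 on the log2 scale.

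The polyphenol oxidase genes, whose products form the brown pigment, had estimates below 0 in this family, but none passed the threshold. On chromosome 8, 9 were listed, of which 6 had a row in the table. With edgeR, 0 of the 6 were called and 3 had an unadjusted p below 0.05 (18.6% of all genes did), while DESeq2 called 2, limma-voom called 0 and the contrast of cross means called 1, PGSC0003DMG400018925, with a positive sign. All 6 estimates were negative, with a median log2 fold change of -1.51 (-1.42 without 2170_1), where 55.6% of all genes had a negative estimate. Polyphenol oxidases are a family of close copies on 1 chromosome, so reads may have been split between them during counting.

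POT32 (PGSC0003DMG400018916), a polyphenol oxidase isoform of the tuber, measured 0.373 CPM in 2170_1, 6.98 in 2170_2, 6.34 in 2170_3, 0.766 in 2170_4, 1.60 in 2170_5, 1.32 in 2170_6, 2.18 in 2170_7 and 4.89 in 2170_8. The other 59 samples ran from 0.600 to 83.0 CPM with a median of 5.00. Of the sibs, 2 were above that median and 2170_1 was below every other sample. The log2 fold change was -1.61 (SE 0.62, adjusted p = 0.13 by edgeR and 0.041 by DESeq2), and -1.44 (adjusted p = 0.21 by edgeR) without 2170_1. By its mean on the log2 scale, the family was the lowest of the 11 crosses, but the medians of crosses 2183 (1.99 CPM), 2121 (2.10 CPM) and 2175 (2.39 CPM) were close to that of cross 2170 (1.89 CPM). In the other crosses, POT32 did not pass the threshold between high and low bruising (log2 fold change 0.27, SE 0.39, adjusted p = 0.83).

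Among the other polyphenol oxidase genes, PGSC0003DMG400018914 was at 0 to 1.39 CPM in the family and 0 to 18.7 CPM (median 1.17) in the others, with a log2 fold change of -2.03 (adjusted p = 0.12 by edgeR and 0.023 by DESeq2), and -2.19 (adjusted p = 0.12 by edgeR) without 2170_1. PGSC0003DMG400018917, annotated as polyphenol oxidase A, was under 1 CPM in all 8 sibs. COB, annotated as catechol oxidase B (PGSC0003DMG400029575), was at 9.58 to 37.5 CPM (median 16.4) against 0.987 to 114 CPM (median 20.3), with a log2 fold change of -0.39 (SE 0.43). PGSC0003DMG400029576 ranged from 1.03 to 19.9 CPM among the sibs, with a log2 fold change of -1.41 (SE 0.87). PGSC0003DMG400018925, annotated as polyphenol oxidase B, had no read in 6 of the 8 sibs, and the sign of its estimate (-0.06) changed with the settings. Counted from the highest mean log2 level, the family ranked 10 of the 11 crosses for PGSC0003DMG400018914 and 7 for PGSC0003DMG400018917. It ranked 6 for COB, 5 for PGSC0003DMG400029576 and 3 for PGSC0003DMG400018925.

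**Figure D4:**
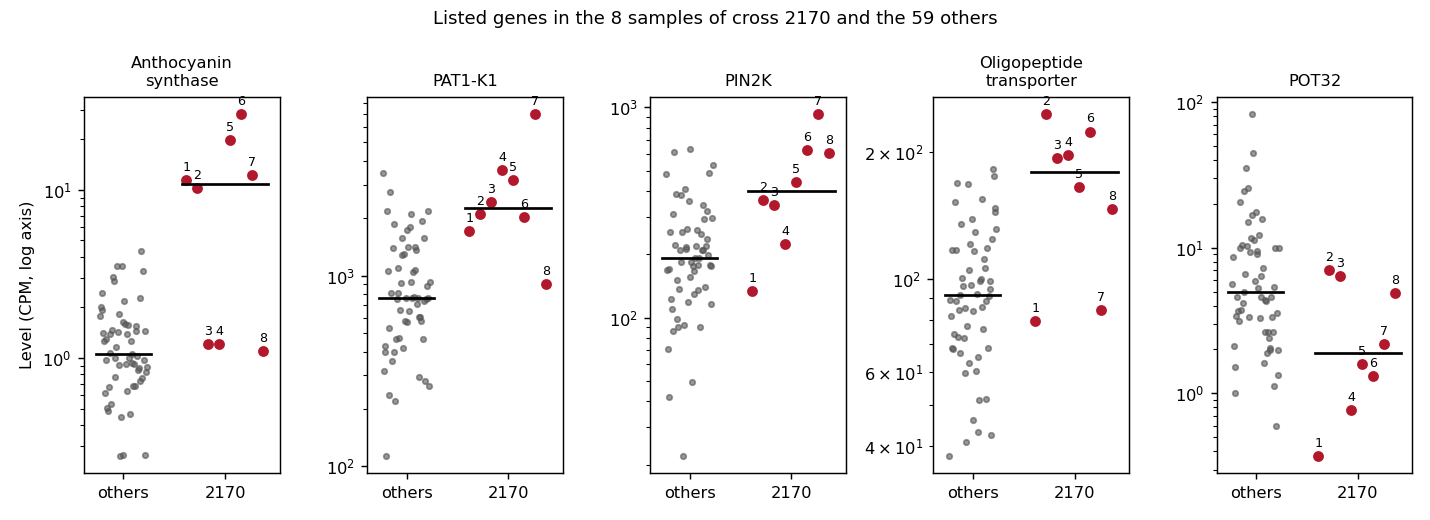
Levels (CPM, log axes) of the 4 listed genes past the threshold and of POT32 in the 59 other low-bruising and intermediate samples (grey) and in the 8 samples of cross 2170 (red, numbered by genotype), with lines at the medians. The groups overlap in every panel, and the sib with the highest value differs between genes: 2170_6 for the anthocyanin synthase gene, 2170_7 for PAT1-K1 and PIN2K, and 2170_2 for the oligopeptide transporter and POT32.

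The patatin PAT1-K1 (PGSC0003DMG400008749, chromosome 8) was higher in cross 2170. Its level was 1705, 2107, 2436, 3591, 3152, 2015, 7045 and 903 CPM in 2170_1 to 2170_8, and 114 to 3443 CPM with a median of 765 in the other 59 samples. All 8 sibs were above the median of the others and 2 of them (2170_4 and 2170_7) were above every other sample. The mean was 2869 ± 1881 CPM (SD, n = 8) against 974 ± 668 CPM (n = 59), and the log2 fold change was 1.56 (SE 0.31, adjusted p = 0.0010 by edgeR). It was 1.64 (adjusted p = 0.00091) without 2170_1 and 1.22 (adjusted p = 0.031) without 2170_7. The high-bruising samples of the other crosses had a median of 917 CPM.

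No other patatin was called, although the estimates of all 5 were positive. The log2 fold change was 0.64 (SE 0.35) for PATO, 0.51 (SE 0.32) for PAT2-K4, 0.44 (SE 0.30) for PAT0409 and 0.41 for PAT3, with adjusted p of 0.31, 0.41, 0.46 and 0.75 by edgeR. By mean log2 level, cross 2170 was the highest of the 11 crosses for PAT1-K1, PATO, PAT2-K4 and PAT0409. Patatins are close copies as well, so the share of reads given to each is uncertain. Of the 10 measured genes of lipid metabolism, patatins included, 1 was called higher and none lower, with a median log2 fold change of 0.28. LOX1-ST-2, a lipoxygenase, which oxidises the fatty acids that patatin can release, had a median of 763 CPM in the family and 373 CPM in the others but overlapped widely (log2 fold change 0.08, SE 0.56). The triacylglycerol lipase gene LIPIII27 (PGSC0003DMG400007805) had a log2 fold change of -0.83 (adjusted p = 0.15), and -0.97 (adjusted p = 0.12) without 2170_1.

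Protease inhibitors, which protect tuber proteins from the proteases of insects and pathogens and serve as storage proteins, were mostly estimated higher in cross 2170. Of 10 measured, 1 was called higher and none lower. The estimate was positive for 9, with a median log2 fold change of 0.84 (0.63 without 2170_1). PIN2K (PGSC0003DMG400004547, chromosome 3), a type-2 proteinase inhibitor, measured 133, 361, 344, 224, 442, 628, 931 and 608 CPM in 2170_1 to 2170_8, beside 22.0 to 636 CPM (median 192) in the others. Above that median were 7 of the 8 sibs, and 1 (2170_7) was above every other sample. Its log2 fold change was 1.04 (SE 0.29, adjusted p = 0.032 by edgeR). The call was lost without any 1 of 4 sibs: the adjusted p was 0.014 without 2170_1, but 0.058 without 2170_5, 0.094 without 2170_6, 0.17 without 2170_7, 0.086 without 2170_8 and 0.12 with low-bruising samples only. It was also lost when all samples of the other crosses, the high-bruising ones included, were compared (log2 fold change 0.87, adjusted p = 0.097).

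The largest estimate of this group was that of CPI1 (PGSC0003DMG400010139, chromosome 3), annotated as cysteine protease inhibitor 1. Its level was 144 to 832 CPM (median 274) in the 8 sibs and 1.79 to 622 CPM (median 16.6) in the other 59. All 8 sibs were above the median of the others and 3 were above their maximum. The log2 fold change of 2.06 (SE 0.66) had an adjusted p of 0.072 by edgeR and 0.00056 by limma-voom, and it was 1.83 (adjusted p = 0.14 by edgeR) without 2170_1. The level was not particular to the family, since the median was 388 CPM in cross 2175, 268 CPM in cross 2183 and 111 CPM in cross 2155, but 8.66 to 27.4 CPM in the other 7. Without cross 2175 or without cross 2183, the gene passed the threshold (adjusted p = 0.023 and 0.043).

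The Kunitz-type inhibitors PKPI-A5, CDI and KTPI had log2 fold changes of 1.11, 1.00 and 0.68 with adjusted p of 0.10, 0.24 and 0.21 by edgeR. Cross 2170 had the highest mean log2 level of the 11 crosses for each. By the median, however, crosses 2177 and 2155 were higher for KTPI (5860 and 4032 CPM against 3879 CPM). The same held for CDI (411 and 406 CPM against 372 CPM). Without 2170_7, the log2 fold changes of PKPI-A5, CDI and KTPI were 0.76, 0.43 and 0.38, with adjusted p of 0.38, 0.75 and 0.62. In contrast, STKTI had a log2 fold change of -0.46 (adjusted p = 0.41), KTI-D of 0.44 (adjusted p = 0.78) and KTEI of 0.18 (adjusted p = 0.92). KTEI measured 703 CPM in 2170_1 and 11.9 to 121 CPM in the other 7 sibs, and its log2 fold change was -0.86 (adjusted p = 0.56 by edgeR) without that library. The inhibitor gene PGSC0003DMG400010129 is annotated as Aspartic protease inhibitor 10. It was likewise at 107 CPM in 2170_1 and at 0 to 10.3 CPM in the other sibs. Its log2 fold change was 1.55 (adjusted p = 0.52 by edgeR) with that library and -1.12 without it. However, 7 sibs were above the median of the other crosses, which was 0 CPM, with no read in 31 samples. Of 29 alternatives, 3 called the gene higher, all with 2170_1 included. These were limma-voom (log2 fold change 3.27, adjusted p = 0.030), a mean for each cross (5.45, adjusted p = 8.7e-06) and library size as a term (4.33, adjusted p = 0.0083).

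The same sib was often the highest in storage protein genes. For 8 of 13 patatin and named inhibitor genes, 2170_7 had the highest level of the 8 samples, and for 6 of the 13, 2170_2 had the lowest. For example, PAT2-K4 measured 3178 CPM in 2170_7 and 556 CPM in 2170_2, and KTPI 11747 CPM and 2799 CPM. The totals of both libraries were similar, at 20464326 and 19440180 counts.

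**Figure D5:**
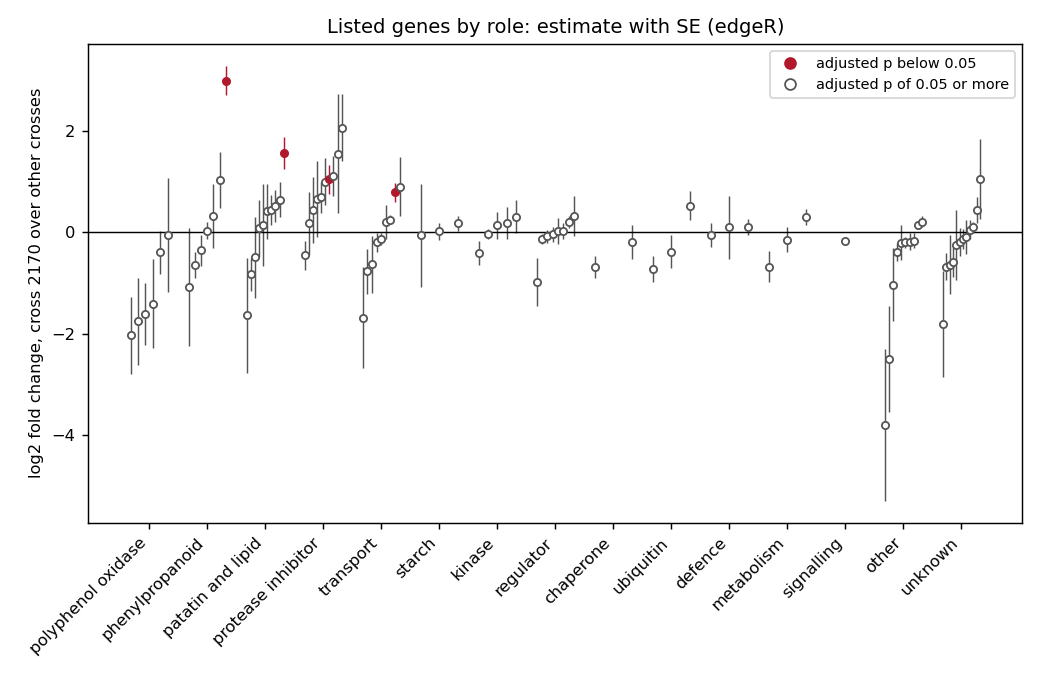
Log2 fold change of cross 2170 over the other crosses (edgeR, with SE bars) for the 92 listed genes, grouped by role, with filled red points for an adjusted p below 0.05. The 4 red points lie at 0.79 to 2.99, all 6 polyphenol oxidase genes lie below 0 and 9 of 10 protease inhibitors lie above 0.

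A transporter was the fourth listed gene past the threshold. An OPT family gene (PGSC0003DMG400013297, chromosome 11) annotated as an oligopeptide transporter, which carries small peptides across membranes, measured 79.5 CPM in 2170_1, 247 in 2170_2, 194 in 2170_3, 197 in 2170_4, 165 in 2170_5, 224 in 2170_6, 84.5 in 2170_7 and 146 in 2170_8. The other samples ran from 38.0 to 183 CPM with a median of 91.3. Cross 2183 was near the family, at 132 to 183 CPM (median 147) beside a median of 179 CPM in cross 2170. Above every other sample were 4 sibs, and 2170_1 and 2170_7 were below the median of the others. Of these 4 sibs (2170_2, 2170_3, 2170_4 and 2170_6), 2170_2 and 2170_6 were also among the 5 with a high anthocyanin synthase level, whereas 2170_3 and 2170_4 were not. The log2 fold change was 0.79 (SE 0.19, adjusted p = 0.0095 by edgeR), 0.89 (adjusted p = 0.0033) without 2170_1 and 0.68 (adjusted p = 0.052) without 2170_2, and it was 0.59 (adjusted p = 0.14) with low-bruising samples only. The gene is on the study's bruising list. In the other crosses its median was 72.3 CPM with high bruising, and its log2 fold change of high over low bruising was -0.42 (SE 0.13, adjusted p = 0.15). Of the 9 measured transport genes, 1 was called higher and none lower, with a median log2 fold change of -0.14. The gene of subunit h of the vacuolar ATP synthase, the proton pump of the vacuole, had an estimate of 0.25 (SE 0.08, adjusted p = 0.081), with all 8 sibs above the median of the others.

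Of the 57 genes of the bruising list, 2 were called higher (the anthocyanin synthase and the oligopeptide transporter genes) and none lower in cross 2170, or 3.51% of the list, and 11 had an unadjusted p below 0.05, beside 18.6% of all genes. The median log2 fold change was -0.13. Between high and low bruising in the other crosses, 12 of the 57 passed the threshold (7 with the replicate number as a block), beside 0.171% of all genes. The study had chosen the list on these same high- and low-bruising samples, so this count is no evidence for it. None of the 12 was called in cross 2170 by edgeR. The values of 3 of them with an unadjusted p below 0.05 there are given as examples, followed by others with a larger p. PGSC0003DMG400012485 (chromosome 8), annotated as an interactor of HSP70, a chaperone of protein folding, was at 2.13 to 11.8 CPM (median 5.86) in the family and at 4.69 to 22.5 CPM (median 10.7) in the others, with a log2 fold change of -0.69 (adjusted p = 0.061, and 0.030 without 2170_1, both by edgeR, but 0.018 by DESeq2 and 0.049 by limma-voom), beside -0.66 for high over low bruising. The G protein alpha subunit gene (PGSC0003DMG400033681), which relays receptor signals, had -0.18 (adjusted p = 0.15) beside -0.22. The gene of N-acetylneuraminate-9-phosphatase (PGSC0003DMG400029856) had -0.68 (adjusted p = 0.20) in cross 2170 (-0.90 without 2170_1), with 12.0 to 43.7 CPM in the sibs and a median of 27.4 CPM in the others, beside 0.68 for high over low bruising, where the median of the high-bruising samples was 46.7 CPM. In the family, 6 of the 8 sibs were below the median of the others. Phi-2 (PGSC0003DMG400025889) had -0.08 (adjusted p = 0.80 by edgeR) in cross 2170, beside 0.48 for high over low bruising. The RecA protein gene (PGSC0003DMG400008143) was at 2.03 to 35.4 CPM (median 2.36) in the family. Its log2 fold change was 0.32 (adjusted p = 0.74 by edgeR), while the adjusted p was 0.043 by DESeq2. Without 2170_1, it was -0.94 (adjusted p = 0.21 by edgeR), beside 1.26 for high over low bruising.

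The other groups of listed genes held no call. With edgeR, 0 of 5 kinase, 0 of 8 regulator, 0 of 3 starch, 0 of 3 ubiquitin, 0 of 3 defence, 0 of 3 metabolism, 0 of 2 chaperone, 0 of 1 signalling, 0 of 12 unknown and 0 of 10 other genes were called, of which 9 (of 50, beside 18.6% of all genes) had an unadjusted p below 0.05, 3 were called by DESeq2 and 1 by limma-voom. CI21A, annotated as Ci21A protein, lay at 1139 to 1724 CPM in the 8 sibs, all below the median of the others (1836 CPM), with a log2 fold change of -0.39 (SE 0.18, adjusted p = 0.21). Altogether, 4 of 92 listed genes (4.35%) were called, beside 2.68% of all genes. Without 2170_1, 5 of the 92 were called, 4 of them higher.

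Of the genes with no name in the sources, the following had the smallest p in each direction among those past the threshold whichever of the 8 samples was left out. PGSC0003DMG400021058 had 7, 10, 9 and 12 reads in 2170_2, 2170_5, 2170_7 and 2170_8 and none in the other 4 sibs, and it had reads in only 1 of the other 59 samples. Its level did not exceed 0.516 CPM, and its fitted log2 fold change of 4.68 rests on these few reads. PGSC0003DMG400003563 was described with the anthocyanin synthase gene. PGSC0003DMG400022151 was lower, at 6.71, 7.28, 3.82, 3.61, 6.09, 5.19, 6.22 and 5.51 CPM in 2170_1 to 2170_8 against 5.61 to 18.3 CPM (median 10.9) in the others, with 4 sibs below every other sample and a log2 fold change of -0.93 (SE 0.15, adjusted p = 4.4e-05 by edgeR). PGSC0003DMG400031346 was the most even of the 4, at 7.03 to 9.55 CPM in the 8 sibs against 6.21 to 24.1 CPM (median 16.8), with a log2 fold change of -0.95 (SE 0.16, adjusted p = 7.4e-05 by edgeR). All 8 sibs were below the median of the other crosses for both of these genes. Counted from the highest mean log2 level, cross 2170 ranked 11 of the 11 crosses for PGSC0003DMG400022151. For PGSC0003DMG400031346 it ranked 10, so another cross was lower. Without 2170_1, the log2 fold changes of PGSC0003DMG400022151 and PGSC0003DMG400031346 were -0.97 and -0.92.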

How the data were processed

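RNA of bruised tuber tissue was sequenced from poly(A) libraries, 1 library for each of 100 genotypes. The authors checked the reads with FastQC 0.11.7, removed ribosomal reads with SortMeRNA, trimmed with BBDuk, aligned to the PGSC-DM assembly with STAR 2.6.1 and deposited whole-number read counts per gene as STAR gave them, without normalization and after removal of genes with low counts. The deposited table holds 25163 genes, and each of them reached 5 counts in 5 or more of the 100 samples. No pair of libraries had over 50% identical counts. Samples were grouped by cross and bruising class from their titles.

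Counts of the 8 samples of cross 2170 and of the 59 others were compared with edgeR 4.0.16 (R 4.3.3; TMM normalization, quasi-likelihood F test, no covariate, Benjamini-Hochberg adjustment over all genes, threshold 0.05). Levels are CPM on TMM-scaled library sizes over all 100 samples. Log2 CPM for spreads and correlations used a prior count of 2. P-values measure the spread between single samples of different genotypes, which for the 59 others includes the differences between their crosses. In simulated counts at the means and depths of these libraries, a log2 fold change of 1 was given to 200 genes of at least 1 CPM on average. Of the changed genes, 67% were recovered, and 14 of 148 calls were false, 10 of them under 1 CPM. The simulated samples were drawn independently, without families, so the share of false calls in a comparison of families was not tested.

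Alternatives were DESeq2 1.42.0, limma-voom (limma 3.58.1), other size factors and filters, other samples, a mean for each cross, terms for bruising class, library size and replicate number, and each sample of the family and each other cross left out. Genes with values per sample are the listed genes past the threshold, POT32, and the 2 unnamed genes with the smallest p in each direction that passed in all fits with 1 sib left out. Other listed genes are named by role. The members and lists were chosen with earlier results of these data known. Gene names come from the study's lists, since none of the identifiers matched the RefSeq table. The authors' bruising scores were not used here.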

Additional observations from a re-analysis of the deposited data

Results flagged for a closer look

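Library 2170_1 was set apart by its mean correlation of log2 CPM with the other 7 samples of cross 2170, which was 0.920 where the next lowest sample had 0.936. The gap to that sample was 0.761 of the whole range of the 8 values, above the 95% critical value of Dixon's test for 8 samples. The same measure of a distant sample was applied to the levels of 45 genes followed in detail and to the total counts, and none of them was past the limit, where chance alone passes about 1 group in 20.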

How the results depend on the processing

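The count of 675 genes for cross 2170 was within 1.5 times of itself for most alternatives, but it was 296 with low-bruising samples only, 1925 (1346 higher, 579 lower) with a mean for each cross, 1222 with DESeq2 and 231 at an adjusted p below 0.01; leaving out 1 sib or 1 other cross gave 410 to 978. Fewer samples entered the first of these fits, and the cause was not tested for the others. The titles give each sample biological replicate 1 or 2, but a number marks no shared plant: the mean correlation of deviations was 0.0069 between samples of different crosses with the same number and -0.0071 with different numbers. With the replicate number as a block, 694 genes were called for cross 2170 and 24 for high over low bruising in the other crosses, where 43 were called without it. An alternative chosen after seeing the data, without 2155_6, gave 39. The genes present in or absent from cross 2170 only stayed at 0 at 1 and 0.2 CPM.

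Of 1301 values of 45 genes followed in detail, 1242 kept their direction and their side of the threshold, 8 lost the call (all of PIN2K and the oligopeptide transporter), 24 gained one and 27 changed sign. The latter were values of genes not called in the comparison as reported. The log2 fold change of PGSC0003DMG400018925 was 0.082 with bruising class as a term, 1.68 with a mean for each cross, 0.22 with limma-voom, 0.21 with library size as a term, and -0.79 to 1.70 on leaving out sibs or crosses. KTEI was at -0.069 with all samples of the other crosses and at -0.86 to 0.44 on leaving out, PAL at -0.019 and at -0.063 to 0.51, HQT at -0.0036 with bruising class as a term and at -0.047 to 0.14, 4CL2 at 0.037 with a mean for each cross, LOX1-ST-2 at -0.15 to 0.52 and PGSC0003DMG400010129 at -1.12 to 2.80. DESeq2 and the filter of edgeR gave no adjusted p for PGSC0003DMG400018925 and PGSC0003DMG400021058. At 7774698 counts in the shallowest library, differences of genes near 1 CPM rest on few reads.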

Other observations

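The 9 genes that were extreme in 2170_1, 2170_2, 2170_5, 2170_6 and 2170_7 were also extreme in 1 sample outside the family. In 2155_6, a high-bruising sample of the cross of Crop52 with 'Admiral', all 9 were above every one of the 59 low-bruising and intermediate samples of the other crosses, and the anthocyanin synthase gene was at 19.5 CPM, where the next highest of the 33 high-bruising samples had 2.40 CPM. In no other high-bruising sample were more than 2 of the 9 genes above that limit. By its log2 CPM, 2155_6 was closest to its own cross (mean correlation 0.922) and not to cross 2170 (0.903). Library 2170_1 was among the samples by which the 9 genes were picked, so its high levels of them are no evidence on its label.

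The level of the anthocyanin synthase gene over the 67 samples had a correlation of at least 0.8 with 3 other genes, all called higher in cross 2170, and of at least 0.7 with 8, a measure chosen after the data were seen. In the 59 samples of the other crosses, the highest correlation of any gene with it was 0.58. The median level of the 3 genes was 0 CPM in the median sample of those crosses and at most 1.24 CPM. A correlation could hardly show at such levels, so the 59 samples cannot decide whether the likeness is particular to cross 2170.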
